A study of Mus musculus with 6 samples.

Results

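Zfp36, Zfp36l1 and Zfp36l2, together with Btg1, Btg2, Btg3, Tob1 and Tob2, encode the RNA-binding and adaptor proteins that mark mRNAs for loss of the poly(A) tail. These 8 genes were taken by symbol from the 55487 genes of the deposited table, and all 8 passed the filter on low counts, by the libraries of either group alone, that left 15419 genes for testing. They were measured by RNA-seq in cells of mouse bone marrow that the labels call LT-HSCs, long-term haematopoietic stem cells. All 6 libraries carried the genotype given as Mmrn1-GFP type, in which GFP is green fluorescent protein, with 3 libraries from cells labelled Mmrn1-low and 3 from cells labelled Mmrn1-high. No treatment, age or strain was given, nor was the surface gate of the sort or whether replicates came from separate mice, so the p-values given here cover the variation among libraries alone, and that variation may be technical.

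The Zfp36 proteins bind AU-rich elements in the 3′ untranslated regions (UTRs) of short-lived mRNAs through a tandem of CCCH zinc fingers and recruit the CCR4-NOT deadenylase. Zfp36 itself, also called tristetraprolin, is induced by mitogens and inflammatory signals and limits the mRNAs of cytokines. Zfp36l1 and Zfp36l2 are known from lymphocyte development, and Zfp36l2 is required for the maintenance of blood stem cells. The Btg/Tob proteins bind the deadenylase subunits encoded by Cnot7 and Cnot8 through a conserved N-terminal domain, speed deadenylation and slow cell division when overproduced. Btg2 is a target of p53 and of growth factor signals, and Btg1 and Btg2 are known to keep lymphocytes quiescent.

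The nonamer TTATTTATT, the core of the AU-rich elements that Zfp36 proteins bind, was searched on the transcript strand in the 3′ UTR of 1 principal protein-coding transcript of each gene (GENCODE release M21). It occurred once in each of the 3 Zfp36 genes and in none of the 5 Btg/Tob genes, and 7.21% of 11823 tested genes with a 3′ UTR held it. Genes of 1 chromosome were left out of this search and of the promoter search below. The 3 sites are shown because they place the element this family binds within its own transcripts, with the nonamer in capitals:
Zfp36: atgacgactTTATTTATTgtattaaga
Zfp36l1: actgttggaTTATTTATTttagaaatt
Zfp36l2: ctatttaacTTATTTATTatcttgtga
On GRCm38 the nonamers lie on the minus strand at chr7:28376961-28376969 for Zfp36, chr12:80108177-80108185 for Zfp36l1 and chr17:84184924-84184932 for Zfp36l2. The shorter pentamer ATTTA, which the nonamer contains, was present in the 3′ UTR of all 8 genes, from 3 copies in Zfp36 and Tob1 to 11 in Btg1, whose 3′ UTR was the longest at 4166 bases. A match is a run of letters, not a shown binding site.

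Promoter windows of 300 bases (RefSeq, GRCm38.p6) matched for 7 of the 8 genes. They were searched on both strands for TGACGTCA, the cAMP response element bound by CREB, for its core TGACG, and for the CArG box bound by serum response factor, since Btg2 and Zfp36 are known immediate early genes. Btg2 held the full cAMP response element 166 bases before the start site, a motif found in 1.79% of 32851 promoter windows. It occurred in any window of 3.53% of 10232 tested genes, and the shares of tested genes below are counted likewise. The full element contains the core on both strands. Zfp36 held a CArG box 58 bases before the start site, found in 1.63% of windows and for 1.51% of tested genes. The core TGACG alone, found in 20.8% of windows and for 35.1% of tested genes, occurred in Btg1 on the other strand at 2 places and in Tob1. TATAAA was found in Zfp36l1, Btg1 and Tob1 (13.6% of windows, 8.81% among tested genes) and CCAAT in Zfp36l1, Btg1, Btg2, Btg3 and Tob1 (37.4% and 43.3%). No link between these motifs and the levels of the genes was tested. The windows of Btg2 (chr1:134079106-134079405, minus strand) and Zfp36 (chr7:28379179-28379478, minus strand) are shown because they hold the rarest motifs searched, the full cAMP response element and the CArG box, in capitals:
Btg2: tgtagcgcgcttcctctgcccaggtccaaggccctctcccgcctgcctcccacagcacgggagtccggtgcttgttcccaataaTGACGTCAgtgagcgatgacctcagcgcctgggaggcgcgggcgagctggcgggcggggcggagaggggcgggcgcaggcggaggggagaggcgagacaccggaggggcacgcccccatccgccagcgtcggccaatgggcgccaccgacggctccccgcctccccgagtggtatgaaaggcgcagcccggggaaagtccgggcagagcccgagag
Zfp36: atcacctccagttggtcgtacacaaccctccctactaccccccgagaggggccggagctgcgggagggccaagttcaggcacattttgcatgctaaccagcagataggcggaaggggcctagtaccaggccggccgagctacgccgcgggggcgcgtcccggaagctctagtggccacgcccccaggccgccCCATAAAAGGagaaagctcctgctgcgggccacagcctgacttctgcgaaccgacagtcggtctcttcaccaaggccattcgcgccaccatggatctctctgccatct

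The libraries held between 11595104 and 30909990 counts assigned to genes. Mmrn1, the gene behind the labels, ranged from 5.61 to 5.82 CPM in the Mmrn1-low libraries and from 8.82 to 11.5 CPM in the Mmrn1-high ones. CPM are counts scaled to a common library total with TMM factors, which correct for composition. Of 10 marker genes of LT-HSCs, 9 were higher in Mmrn1-high cells (Hoxb5 did not pass), and their summed level was 106 to 123 CPM against 302 to 347 CPM. Markers of other cells moved as well: 8 of 8 lymphoid progenitor genes were higher (467 to 482 CPM against 1558 to 1560 CPM summed), all 9 tested granulocyte progenitor genes were lower (27743 to 28996 CPM against 5000 to 5075 CPM) and 10 of 11 macrophage genes were lower (205 to 210 CPM against 68.1 to 69.4 CPM). Among T and NK cell markers, 5 of 7 tested were higher and Nkg7 was lower (449 against 102 CPM), while Cd3d, Cd3e, Cd3g, Trac and Gzma did not reach the filter. Among B cell markers, 6 of 9 tested were higher and Igkc was lower (542 against 272 CPM). Neutrophil markers were higher for 10 of 10 (2987 to 3112 CPM against 4861 to 5180 CPM summed), and the megakaryocyte list had 6 higher of 9, the erythroid list 2 higher and 4 lower of 10 and the plasma cell list 1 higher and 3 lower of 7. These marker counts rest on the edgeR test at an adjusted p under 0.05 that is described below. By that test 30.7% of all genes were called higher and 30.5% lower, so a call for a single marker was common. Of the markers tested, 2 of the T and NK list and 1 of the B cell list passed the filter only through Mmrn1-high libraries. For the macrophage list, 2 passed it only through Mmrn1-low ones. The part of such cells in the levels given next was not tested, and in bulk RNA fewer cells of a type and less RNA per cell cannot be told apart.

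Of the 8 genes, 5 rose and 0 fell in Mmrn1-high cells in the edgeR quasi-likelihood test at a Benjamini-Hochberg adjusted p under 0.05. They were Zfp36, Zfp36l2, Btg1, Btg2 and Tob1. All 8 estimates were positive, so 0 fell at an unadjusted p under 0.05 either, and 0 fell with DESeq2 or limma. Over all genes tested, 61.2% were called, 30.7% higher and 30.5% lower, so a call by itself was common. The groups did not overlap for all 8 genes, each time with Mmrn1-high above, against 34.1% of all genes tested with Mmrn1-high above and 33.7% with it below. Their median log2 fold change was 1.21, beside 0.01 over all genes. Rises of at least 1 on the log2 scale passed for 4 of the 8 genes (Zfp36, Zfp36l2, Btg2 and Tob1), against 11.3% of all genes.

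Zfp36 (ENSMUSG00000044786, GRCm38 chromosome 7, 28376784 to 28380253) was at 242, 232 and 237 CPM in Mmrn1-low replicates 1 to 3 and at 808, 822 and 817 CPM in Mmrn1-high replicates 1 to 3. All 3 Mmrn1-high libraries thus stood far above the Mmrn1-low ones, with a coefficient of variation (CV) of 2.28% in the low and 0.828% in the high group, against 1.56% and 0.858% from counting alone. The level was 3.44-fold higher in Mmrn1-high cells, with a log2 fold change of 1.78 ± 0.03 (standard error, SE) and an edgeR adjusted p of 4.10e-09, above 97.25% of the tested genes.

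Zfp36l2 (chromosome 17, 84183931 to 84187947) was the most abundant of the 8 genes in every library. It was at 710, 695 and 695 CPM in Mmrn1-low and at 1543, 1547 and 1562 CPM in Mmrn1-high libraries. The 2 groups were again well apart and libraries within a group differed little, with CVs of 1.26% and 0.639%. The rise was 2.21-fold (log2 fold change 1.15 ± 0.02 SE, edgeR adjusted p = 1.40e-08). By mean CPM it stood above 99.7% of the tested genes.

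Zfp36l1 (chromosome 12, 80107754 to 80113013) behaved differently between libraries of the same group. It was at 19.2, 11.1 and 16.7 CPM in Mmrn1-low replicates 1 to 3 and at 50.7, 54.0 and 20.4 CPM in Mmrn1-high replicates 1 to 3. Mmrn1-high replicate 3 lay just above the highest Mmrn1-low library, and the other two lay far above it. The CV of 44.5% in the Mmrn1-high group compares with 4.27% from counting alone, and 1.02% of the 11462 genes at 5 CPM or more had a wider ratio of highest to lowest library in that group. The log2 fold change of 1.41 ± 0.46 SE missed the threshold in the edgeR test (adjusted p = 0.0510), and its 95% interval, which is not adjusted for the number of genes, ran from 0.19 to 2.63. Without Mmrn1-high replicate 3 it was 1.73 ± 0.23 SE with an edgeR adjusted p of 0.00289. In GENCODE M21, 55.9% of the exon bases of Zfp36l1 are shared with Gm26669, a long noncoding RNA model on the opposite strand that was not analysed here. Without a stated strand setting, reads of the 2 models cannot be told apart, and the part of this overlap in the spread was not tested.

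**Figure D1:**
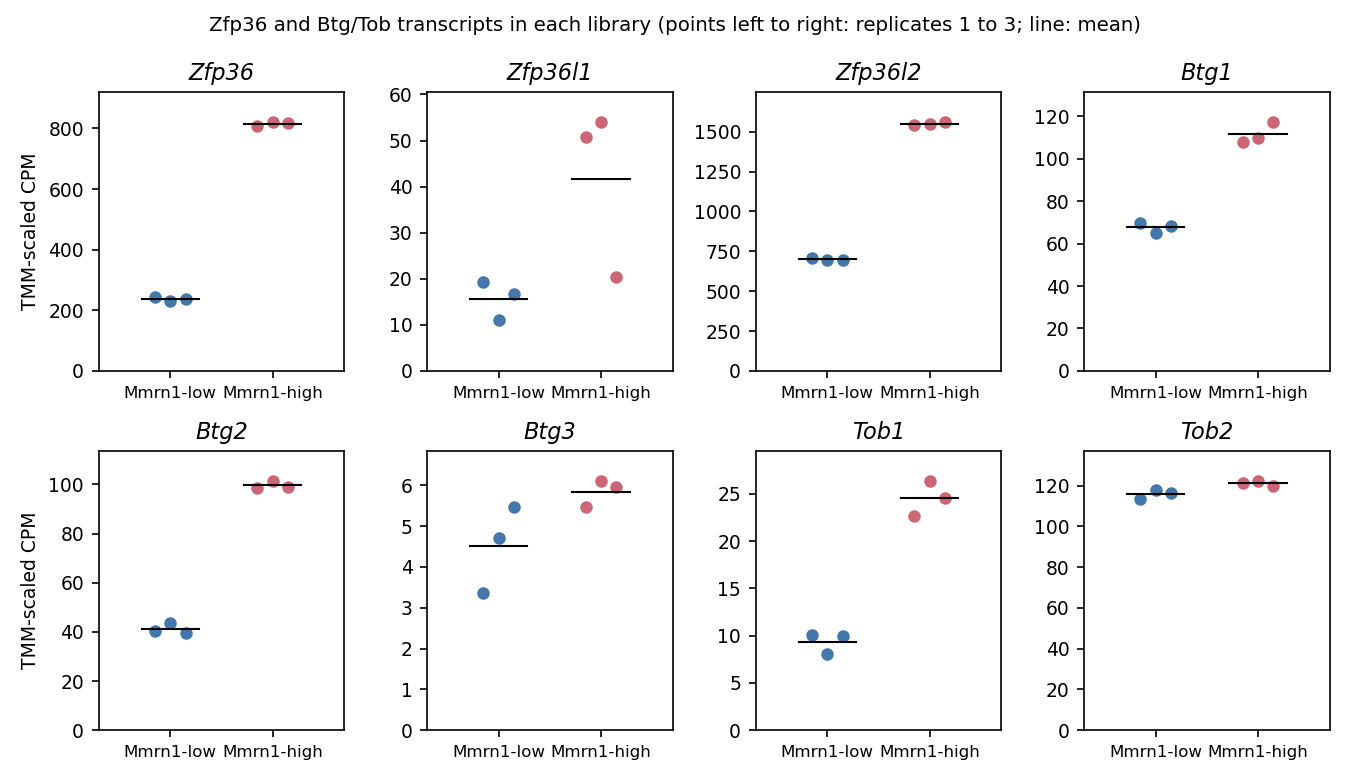
TMM-scaled CPM (vertical axes, starting at 0) of the 8 genes in the 3 Mmrn1-low (blue) and 3 Mmrn1-high (red) libraries, with points in replicate order and a line at the group mean. Zfp36, Zfp36l2, Btg1, Btg2 and Tob1 stand clearly apart between groups, Zfp36l1 has Mmrn1-high replicate 3 at 20.4 CPM beside 50.7 and 54.0 CPM, and Tob2 differs little.

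Among the Btg/Tob genes, Btg2 (chromosome 1, 134075170 to 134079120) was at 40.5, 43.7 and 39.6 CPM in Mmrn1-low and at 98.7, 101 and 98.9 CPM in Mmrn1-high libraries. The Mmrn1-high libraries lay within a narrow band well above the others. The rise was 2.41-fold (log2 fold change 1.27 ± 0.05 SE, edgeR adjusted p = 2.85e-07). Tob1 (chromosome 11, 94211454 to 94215495), an adaptor that links the deadenylase to poly(A)-binding protein, was at 10.1, 8.04 and 10.0 CPM in Mmrn1-low and at 22.6, 26.4 and 24.6 CPM in Mmrn1-high libraries. The groups were well apart. The rise was 2.62-fold (log2 fold change 1.38 ± 0.11 SE, edgeR adjusted p = 1.29e-05), with CVs of 12.3% and 7.60% at this lower level.

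Btg1 (chromosome 10, 96617006 to 96622809) rose less. It was at 69.6, 64.9 and 68.2 CPM in Mmrn1-low and at 108, 110 and 117 CPM in Mmrn1-high libraries. The groups were apart by more than the spread within either. The log2 fold change was 0.72 ± 0.05 SE, a 1.65-fold rise (edgeR adjusted p = 5.09e-06).

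Tob2 and Btg3 did not pass the threshold. Tob2 (chromosome 15, 81848272 to 81858796), the paralog of Tob1, was at 114, 118 and 116 CPM in Mmrn1-low and at 121, 122 and 120 CPM in Mmrn1-high libraries. Its log2 fold change was 0.06 ± 0.03 SE (edgeR adjusted p = 0.118) with a 95% interval from −0.01 to 0.14, so a rise of the size of that of Tob1 lay outside the interval. The call depended on the scaling: with library size alone, which moved the log2 fold changes of all genes up by a median of 0.15, Tob2 was at 0.21 ± 0.03 SE (edgeR adjusted p = 6.11e-04), and with the filter of 5 CPM at 0.11 ± 0.03 SE (adjusted p = 0.0109). Btg3 (chromosome 16, 78332637 to 78377192) was the scarcest of the 8 genes, at 3.36, 4.72 and 5.47 CPM in Mmrn1-low and at 5.47, 6.10 and 5.96 CPM in Mmrn1-high libraries. The highest Mmrn1-low library all but met the lowest Mmrn1-high library. With 53 to 198 counts per library, its log2 fold change of 0.36 ± 0.18 SE (edgeR adjusted p = 0.113) had a 95% interval from −0.05 to 0.77. Without Mmrn1-low replicate 3 it was 0.55 ± 0.17 SE (edgeR adjusted p = 0.0293), and without Mmrn1-low replicate 1 it was 0.20 ± 0.13 SE (adjusted p = 0.237). Btg3 shares 17.3% of its exon bases with Cxadr on the opposite strand, whose mean fell from 3.71 CPM in the low to 0.466 CPM in the high group.

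The other members of these families were hardly sequenced. Btg4, known from oocytes, had 0 counts in all 6 libraries. Zfp36l3, a rodent gene known from placenta, had 3 counts in Mmrn1-low replicate 3 and 5 in Mmrn1-high replicate 2, and 0 in the other libraries.

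**Figure D2:**
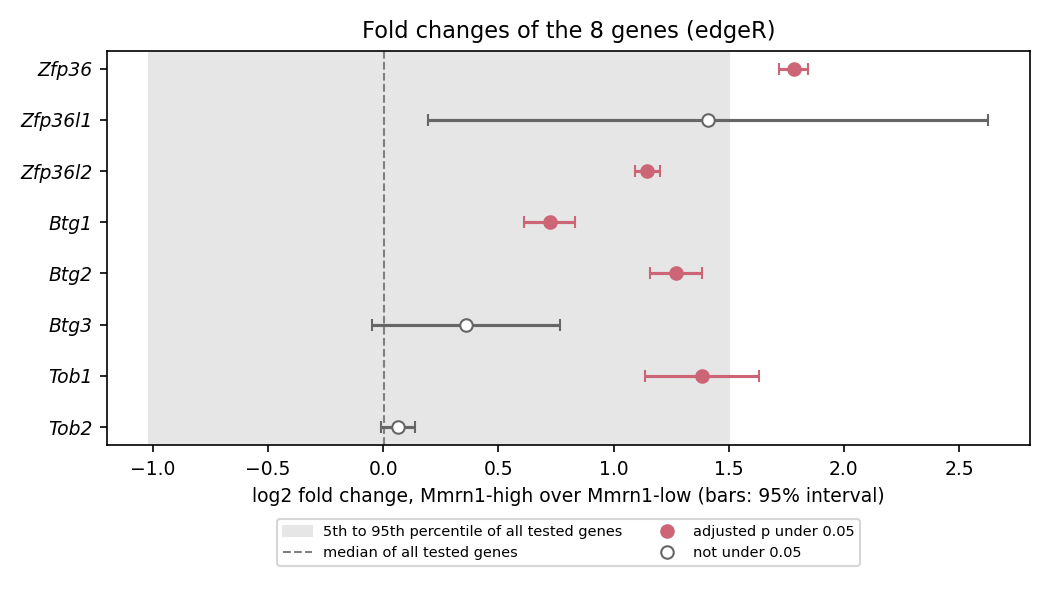
Log2 fold change of each gene, Mmrn1-high over Mmrn1-low, with its 95% interval from the edgeR fit, over a grey band from the 5th to the 95th percentile of all tested genes. Zfp36 lies beyond the band at 1.78, the wide interval is that of Zfp36l1, and Tob2 sits at 0.06 near the dashed median of all genes.

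Levels between genes were compared per length, as CPM per kilobase of merged exon. The authors' FPKM (fragments scaled by gene length and library total) were not used for this, because for 7 of the 8 genes the length they imply equalled the summed length of all annotated transcripts (5255 bases for Zfp36, where merged exons hold 3470). For 3 of the 8 genes it also equalled merged exons. Over 13961 genes with at least 50 counts in a library, 27.1% lay within 1% of the summed length and 20.5% within 1% of merged exons. The length behind most FPKM thus remained unknown. In Mmrn1-low cells Zfp36l2 was highest at 198 ± 2.50 (SD, n = 3) CPM per kilobase, followed by Zfp36 at 68.3 ± 1.56, Tob2 at 17.4 ± 0.326, Btg2 at 15.1 ± 0.791, Btg1 at 12.8 ± 0.457, Zfp36l1 at 5.24 ± 1.38, Tob1 at 4.10 ± 0.506 and Btg3 at 1.13 ± 0.266. Of these neighbours, only the libraries of Zfp36l1 and Tob1 overlapped. In Mmrn1-high cells the order began with Zfp36l2 at 439 ± 2.81 and Zfp36 at 235 ± 1.95, and Btg2 at 36.3 ± 0.535 and Btg1 at 21.1 ± 0.963 now stood above Tob2 at 18.2 ± 0.175. Zfp36l1 (13.95 ± 6.21) overlapped both Tob2 and Tob1 (10.7 ± 0.815), and Btg3 was again lowest at 1.46 ± 0.0824. Tob2 thus passed from the third to the fifth place, while its own level per length changed little.

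**Figure D3:**
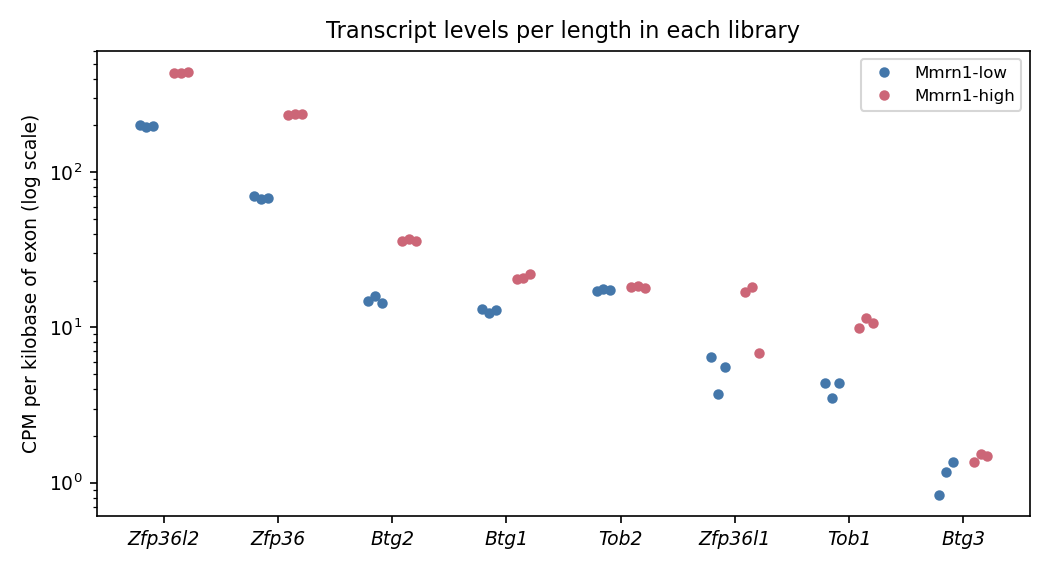
Level of each gene in each library as CPM per kilobase of merged exon, on a log axis, ordered by the Mmrn1-high mean. Zfp36l2 and Zfp36 lie highest in both groups, and Btg2 and Btg1 lie below Tob2 in Mmrn1-low and above it in Mmrn1-high libraries.

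The balance within each family was then compared, since a ratio of 2 genes in a library does not depend on how libraries are scaled. Summed per length, the Zfp36 family was at 272 ± 5.19 (SD, n = 3) CPM per kilobase in Mmrn1-low and 688 ± 4.43 in Mmrn1-high cells, 2.53-fold higher, and the Btg/Tob genes were at 50.5 ± 0.192 and 87.8 ± 1.74, 1.74-fold higher. Both had an exact two-sided permutation p of 0.1, the smallest that 3 against 3 libraries allow. Unlike shares and ratios within a library, these sums depend on the TMM scaling. Of the Zfp36 family, Zfp36 held 18.3% ± 0.157 (SD, n = 3) by the authors' FPKM in Mmrn1-low and 25.8% ± 0.126 in Mmrn1-high libraries. By merged exon length these shares were 25.1% ± 0.145 and 34.1% ± 0.235. Zfp36l2 held most of the remainder, 80.6% ± 0.424 and 73.0% ± 0.516 by FPKM. By merged exon length it held 72.9% ± 0.603 in Mmrn1-low and 63.8% ± 0.721 in Mmrn1-high libraries.

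Ratios of all 13 pairs of genes within a family were compared, with exact permutation tests and Benjamini-Hochberg adjustment over the pairs. For 8 of them the groups did not overlap, each with an exact two-sided p of 0.1, the smallest possible, and an adjusted p of 0.163. Among single genes tested, the groups did not overlap for 34.1% with Mmrn1-high above and 33.7% with it below. No such share was computed for pairs of other genes. The pairs also share genes, so the count is a description and does not set these families apart. The ratio of Zfp36 to Zfp36l2 was higher in Mmrn1-high libraries by 0.63 on the log2 scale, where its SD was 0.02 in Mmrn1-low and 0.01 in Mmrn1-high libraries. The ratio of Btg2 to Tob2 was higher by 1.21 and that of Tob1 to Tob2 by 1.33. The ratio of Btg1 to Tob2 was higher by 0.66 and that of Btg1 to Btg2 changed by −0.55. Btg2 and Tob1 kept closer to each other, with a difference of −0.12 in their log2 ratio and overlapping groups (exact permutation p = 0.7, adjusted p = 0.7). No comparison of pairs passed 0.05, which the number of libraries does not allow. Both pairs with Zfp36l1 overlapped, and so did those of Btg3 with Btg1 and with Tob2.

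**Figure D4:**
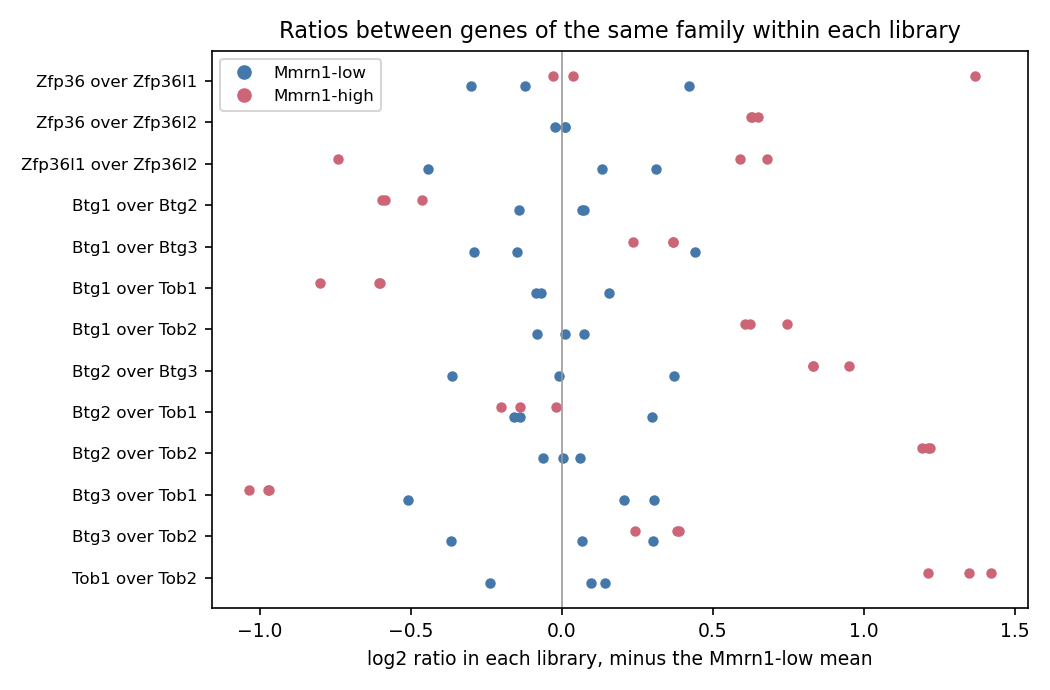
Log2 ratio of each of the 13 pairs of genes within a family in each library, given as the difference from the Mmrn1-low mean of that pair (horizontal axis). The red Mmrn1-high points of Zfp36 over Zfp36l2, Btg2 over Tob2 and Tob1 over Tob2, among others, stand apart to the right. For Zfp36 over Zfp36l1, Mmrn1-high replicate 3 lies far to the right of the other Mmrn1-high points.

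Genes with the most similar profile were found by the root mean square (RMS) difference of centred log2 CPM over the 6 libraries. Candidates were genes at or above the median level. Symbols shaped like predicted or clone-based models were left out, and with them named genes whose symbol begins with a capital letter and a digit. With only 2 groups this likeness rests mostly on the fold change. The nearest to Zfp36 were Flt3 (RMS difference 0.02) and Ier3 (0.03), and 27 of 6984 candidates lay within 0.1. The nearest to Zfp36l2 were Mmp9 and Tmem176b (0.02 each), to Btg2 Cd34 (0.03) and Slc2a3 (0.04), to Btg1 Accs (0.02) and Adgra3 (0.03), and to Tob1 Fam102a (0.07) and Chd3 (0.08). Tob2 was nearest to Crlf3 and Mcm7 (0.01 each) and Btg3 to Tcf12 (0.10) and Zfp865 (0.11). No candidate came within 0.1 of Zfp36l1, whose nearest were Tef (0.31) and Hsd3b7 (0.32).

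Genes of the machinery that these proteins recruit changed in both directions, as did all genes tested (30.7% higher and 30.5% lower). Of 14 deadenylase genes, 4 were higher (Cnot6l, Pan3, Cnot6 and Parn) and 3 lower (Cnot1, Cnot3 and Cnot9) in the edgeR test. Neither count exceeded the share over all genes, and the median log2 fold change of the list was −0.03. Cnot1, the scaffold of CCR4-NOT, fell by 0.30 ± 0.03 SE. Cnot6l, a catalytic subunit, rose by 0.74 ± 0.08 SE and Pan3, of the PAN2-PAN3 deadenylase, by 0.43 ± 0.11 SE. Cnot7 and Cnot8, the direct partners of the Btg/Tob proteins, did not pass the threshold. Cnot7 fell just short of it (−0.16 ± 0.06 SE, edgeR adjusted p = 0.0502), while Cnot8 was at 0.00 ± 0.04 SE (adjusted p = 0.991). With library size alone, 6 deadenylase genes were higher and 1 lower, and without Mmrn1-high replicate 3 the higher ones numbered 2.

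Poly(A)-binding genes had 1 higher member, Paip2 (0.97 ± 0.09 SE), an inhibitor of poly(A)-binding protein, and 3 lower, Pabpc4 (−0.37 ± 0.05 SE), Pabpn1 and Pabpc1, of 5. With library size alone 1 was lower. In the edgeR test with TMM factors, 30.7% of all genes were higher and 30.5% lower, the shares to set beside these counts. Decapping and 5′ to 3′ decay genes had 2 higher (Lsm14b and Ddx6) and 9 lower of 19, with a median of −0.15. Lsm14b stood at 0.66 ± 0.05 SE and the scavenger decapping gene Dcps at −0.49 ± 0.15 SE. With library size alone 6 were higher and 3 lower, and with log2(FPKM + 1) 5 were higher and 4 lower, so the lean of this list depended on the scaling. Without Mmrn1-high replicate 1, 3 were higher and 5 lower. Exosome genes, which degrade RNA from the 3′ end, had 13 lower of 15 and a median of −0.29, led by Exosc3 (−0.47 ± 0.06 SE) and Exosc8 (−0.42 ± 0.05 SE). The count of lower exosome genes was 6 with library size alone. Exosc2 and Exosc6 did not pass, and none of the 20 alternatives called an exosome gene higher.

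Other proteins that act on mRNA stability had 6 higher and 6 lower of 18 in the edgeR test, near the shares over all genes (30.7% and 30.5%). Zc3h12d, of the Regnase ribonuclease family, was higher by 1.42 ± 0.11 SE and Tia1, an AU-rich element binding protein, by 1.07 ± 0.29 SE. With library size alone 2 of this list were lower. A list of the p38 kinase pathway that controls Zfp36 protein, with a phosphatase subunit and the Ywha genes whose products bind phosphorylated Zfp36, had 1 higher and 5 lower of 10. With library size alone the list had 2 higher and 3 lower, and with log2(FPKM + 1) 3 and 3. Dusp1, the phosphatase that switches off p38, rose by 1.11 ± 0.04 SE. Mapkapk3 fell by 1.11 ± 0.03 SE and Mapkapk2, the kinase that inactivates Zfp36, fell by 0.50 ± 0.03 SE, beside lower Ywhaz, Ppp2ca and Ywhae.

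Of 18 tested transcripts with AU-rich elements that are known as Zfp36 family targets, 13 rose and 1 fell. The median was 1.04 beside 0.01 over all genes, of which 30.7% rose and 30.5% fell. Ptgs2 was higher by 2.69 ± 0.20 SE. Lif stood at 0.346 ± 0.244 (SD, n = 3) CPM in the low and 4.06 ± 0.193 CPM in the high group. Lif, Ccl2 and Il1b passed the filter only through the Mmrn1-high libraries, so their place among the tested genes rests on that group. Vegfa was lower (−1.75 ± 0.07 SE). A further 8 of the 26 listed did not pass the filter on low counts, so the counts given for this list do not describe the whole of it. The list shares Fos and Ier3 with the immediate early list, which also holds Dusp1 of the p38 list. Immediate early genes had 20 higher and 1 lower of 21 tested, with Egr3 passing the filter only through the Mmrn1-high libraries, and a median of 1.60, and their summed level ran from 1923 to 2071 CPM in the low and from 5256 to 5319 CPM in the high group. Nr4a1 (3.41 ± 0.05 SE) and Egr1 (3.00 ± 0.05 SE) rose most, above Zfp36, and Srf, which encodes serum response factor, was the lower one (−0.84 ± 0.06 SE). Such genes also respond to handling of cells, and the part of handling in the levels of Zfp36 and Btg2 was not tested.

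Of 16 tested p53 targets, 10 were higher and 2 lower, Gadd45a (−0.44 ± 0.08 SE) and Bax (−0.40 ± 0.08 SE), with a median of 0.52. Of all genes tested, 30.7% were higher and 30.5% lower. Without Mmrn1-high replicate 1 the lower p53 targets numbered 4. Phlda3 was higher by 1.72 ± 0.19 SE, and Plk2, which passed the filter only through the Mmrn1-high libraries, stood at 0.806 ± 0.396 (SD, n = 3) CPM in the low and 6.60 ± 0.380 CPM in the high group. All 28 mitotic genes fell (edgeR), their median being −1.08, led by Ube2c (−1.91 ± 0.03 SE) and Plk1 (−1.81 ± 0.06 SE). In the same libraries, Btg2, Btg1 and Tob1 were thus higher where mitotic genes were lower, a statement on 2 groups that tests no link between them.

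**Figure D5:**
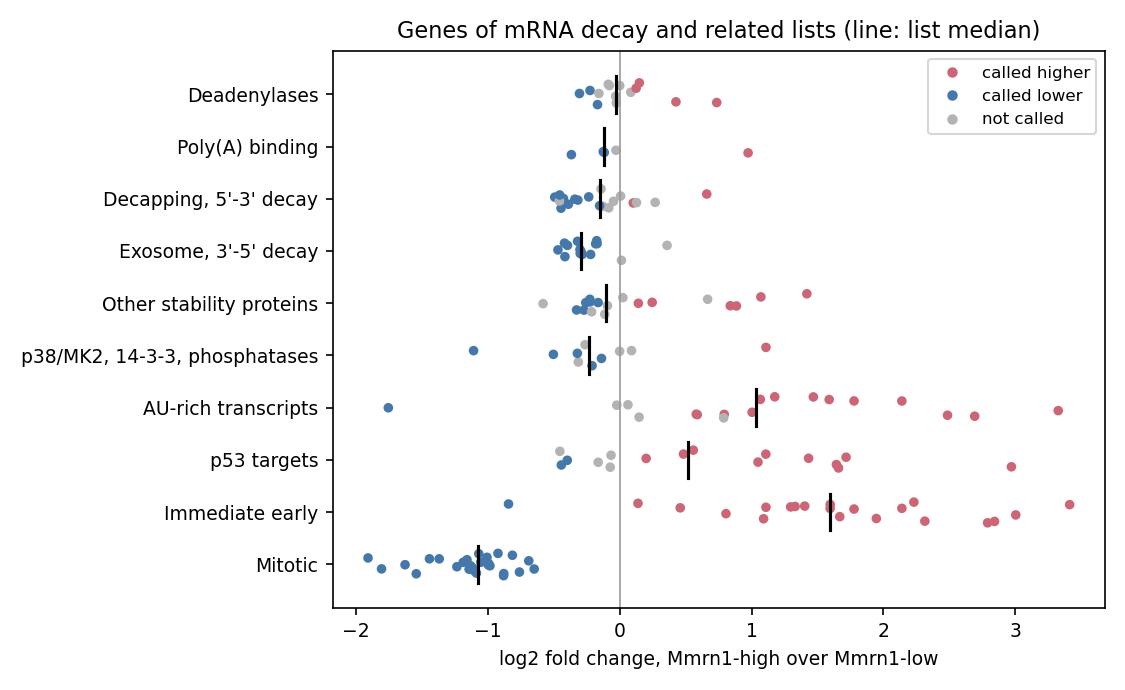
Log2 fold change (horizontal axis) of each tested gene of 10 lists, coloured by its edgeR call, with a line at the list median. Deadenylase genes centre near 0 (median −0.03), AU-rich transcripts and immediate early genes lie mostly to the right (medians 1.04 and 1.60), and mitotic genes lie wholly to the left (−1.08).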

How the data were processed

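Read counts and FPKM per gene were deposited for 6 RNA-seq libraries. Per the submitters' processing notes, CASAVA 1.8, HISAT2, StringTie and edgeR and the build GRCm38 were used, without the role of each. No strand setting, filter or annotation release of the counting was given in the sources used here. Columns of counts, whole numbers with differing totals, and of FPKM are named so per the file headers. How the authors made the FPKM was not stated, and the gene length behind each was computed here from the counts.

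Counts were tested with edgeR 4.0.16 (quasi-likelihood, robust, TMM factors, filterByExpr, group as the only term) in R 4.3.3, with Benjamini-Hochberg adjustment over 15419 genes. The SE was taken from the fold change and its F statistic. Intervals are at 95%. Alternatives used limma 3.58.1 and DESeq2 1.42.0. Shares and ratios were tested with SciPy 1.17.1 by exact permutation. Of the gene identifiers, 99.4% matched GENCODE M21. The procedure was also run on simulated counts in which few genes were changed, unlike these data, so that run does not give the error rate here. The 8 genes and the gene lists were chosen with earlier results of these data known, so list counts are descriptions. Named genes were the 8 genes, their 2 remaining relatives, Mmrn1, the 2 largest called changes of each list with Cnot1, Cnot7 and Cnot8, genes in counts of 5 or fewer, up to 4 immediate early genes, and the 2 nearest profiles of each of the 8. Cell type markers, Cxadr, Gm26669, Exosc6, Ccl2, Il1b and Egr3 were named after their values were seen. Alternatives covered normalisation, filters, tools, FPKM, the replicate block, thresholds and each library left out.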

Additional observations from a re-analysis of the deposited data

How the results depend on the processing

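Zfp36, Zfp36l2, Btg2 and Tob1 passed the threshold under all 20 alternatives and Btg1 under all but the fold threshold, and no fold change of the 8 genes changed sign. The number called higher, 5, was 8 with library size alone and with log2(FPKM + 1), 7 with the 5 CPM filter and with a pseudocount of 0.1, 4 with the fold threshold, and 5 or 6 under the remaining alternatives. Zfp36l1 passed under 9 of 20 alternatives, with adjusted p from 0.00289 to 0.142. With the log2 fold change threshold of 1, 1736 genes were higher and 756 lower over all genes, and 34 higher and 20 lower over the 10 pathway lists (54 and 71 in the test of the report, and 46 to 66 and 45 to 73 under the other alternatives). Over all genes, 3030, 3025 and 3055 were lower with log2(FPKM + 1), with a pseudocount of 0.1 and without the FPKM filter, and 47, 47 and 45 over the lists. Library size alone gave 6201 higher (66.0%) and 3193 lower genes, against 4737 (50.2%) and 4701. FPKM at pseudocounts of 1 and 0.1 gave 61.2% higher at each, FPKM without the filter 66.3% and the fold threshold 69.7%, while FPKM over TMM factors gave 3507 higher (43.9%) and 4473 lower. With raw counts in place of FPKM, the change of share within the family, in percentage points, was 8.98 for Zfp36 (7.46 by FPKM), −9.08 for Zfp36l2 (−7.56), 2.83 for Tob1 (4.07), −15.2 for Tob2 (−12.7) and 2.43 for Btg1 (−2.02), which changed sign because the genes differ in length. With merged exon length, chosen after seeing the data as were the fit without the robust option and FPKM over TMM factors, it was 9.02 for Zfp36, −9.12 for Zfp36l2 and −13.8 for Tob2. With a library left out the change for Zfp36l1 (0.101) ranged from −0.0741 to 0.408, being negative without Mmrn1-low replicate 2 (−0.0522), Mmrn1-high replicate 1 (−0.0319) or Mmrn1-high replicate 2 (−0.0741). Deviations of same-numbered libraries from their group mean correlated across genes at 0.03, −0.18 and −0.04, and those of differently numbered ones at −0.11 to 0.15. With so few libraries in a group, these values cannot tell whether the replicate numbers pair the libraries. The fit with the replicate block called 4476 higher and 4447 lower genes and 5 of the 8. Btg3 had 53 to 198 counts, and its CV in the low group was 23.6% against 11.7% from counting alone.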

Other observations

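Across the tested genes with a searched 3′ UTR, those holding TTATTTATT were more often higher in Mmrn1-high cells than those without it. Of 853 genes with at least 1 nonamer, 39.0% were higher and 27.1% lower (median log2 fold change 0.09), and of 10970 without it, 32.5% were higher and 33.3% lower. Of 186 genes with at least 2 nonamers, 51.6% were higher and 21.5% lower (median 0.25). Their 3′ UTRs were longer, with a median of 2257 bases for genes with at least 1 nonamer against 931 bases without. Among 3′ UTRs of 2059 bases or more, 39.0% were higher with and 36.7% without the nonamer, and among those of 408 to 999 bases 40.5% and 31.5%. This was looked at after the values had been seen, is a description without a test, and says nothing of binding.

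Exosc6 of the exosome list was uneven within both groups, at 21.3 ± 26.4 (SD, n = 3) CPM in the low and 28.3 ± 20.97 CPM in the high group, and did not pass the edgeR test (adjusted p = 0.833).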
